A study of Homo sapiens with 8 samples.

Results

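The 60 genes described here encode the factors that start and elongate protein synthesis in EndoC-βH5, together with the proteins that bind or modify those factors. This established line of human beta cells stands in for the insulin-producing cells of the pancreas. The genes are the protein-coding entries whose symbol begins with EIF1 to EIF6, EEF1 or EEF2, without the eIF2 kinases (EIF2AK), and they make up 60 of the 16525 genes in the deposited expression table. RNA from 4 untreated control cultures was compared with RNA from 4 cultures kept for 48 h with a mixture of 3 cytokines, namely 50 U/mL of IL-1β and 1000 U/mL each of IFNγ and TNFα. Both conditions are cultures of the same line, and the sample labels do not say whether replicates were separate experiments, so the p-values measure the spread between these libraries. The column names of the table share an opening between 1 control and 1 cytokine library each, and the main test does not use these pairs. Of the members, 57 were above 0.5 CPM (reads on a gene scaled to the library total) in all 8 libraries, and EIF4E1B, EIF5AL1 and EEF1AKMT4 were not. A gene was called when its log2 fold change in log2(CPM + 0.1) was above 0.5 in size and its adjusted p was below 0.05 (limma, Benjamini-Hochberg over all 16525 genes).

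Translation begins when eIF2 brings the initiator tRNA to the small ribosomal subunit, with eIF1, eIF1A and the many-subunit eIF3 holding the subunit open for scanning. The cap-binding eIF4E, the scaffold eIF4G and the helicase eIF4A recruit the mRNA, while eEF1A then delivers each aminoacyl-tRNA and eEF2 moves the ribosome along. Beta cells make large amounts of proinsulin, and phosphorylation of eIF2, which blocks its exchange factor eIF2B, is a well known brake on that process. Many mRNAs of this machinery start with a C followed by an unbroken run of pyrimidines, the terminal oligopyrimidine (TOP) motif, through which mTORC1 and the protein LARP1 are known to control their translation and stability.

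The bases around the transcription start are shown for the factors that were called in both directions, since the results return to these bases. Sequences are those of RefSeq on GRCh38.p14, and 48 of the 60 members were matched to at least 1 start in the set used here. Each window holds 15 bases before and 15 bases from the start onward, 5′ to 3′ on the gene's own strand, and the pyrimidine run that opens the transcript is in capitals. The first group holds factors that were called lower, namely EEF1A1 at chr6:73521018-73521047 (minus strand), EEF2 at chr19:3985449-3985478 (minus strand), EEF1B2 at chr2:206159880-206159909 (plus strand), EIF3F at chr11:7987322-7987351 (plus strand) and EIF2D at chr1:206612451-206612480 (minus strand).
EEF1A1: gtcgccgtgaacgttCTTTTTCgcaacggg
EEF2: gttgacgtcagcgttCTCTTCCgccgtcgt
EEF1B2: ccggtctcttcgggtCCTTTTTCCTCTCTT
EIF3F: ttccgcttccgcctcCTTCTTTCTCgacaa
EIF2D: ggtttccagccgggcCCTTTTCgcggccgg
The next group holds factors that were called higher and have no such run, namely EIF1 at chr17:41688870-41688899 (plus strand), EIF1B at chr3:40309692-40309721 (plus strand) and EIF5A2 at chr3:170908623-170908652 (minus strand).
EIF1: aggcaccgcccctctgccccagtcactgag
EIF1B: tcggccattttgtgcgagaagccgcagcgc
EIF5A2: cccgccccgtctcttggaactgccgcggcc
EEF2K and EIF4E1B were called lower and open without such a run as well, at chr16:22206263-22206292 (plus strand) and chr5:176630660-176630689 (plus strand).
EEF2K: tgcccgcccgcttctgctcaacctagacca
EIF4E1B: ggccgtaagactcgcgtagtctgttgggag

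In cytokine-treated cells 6 factors rose (EIF1, EIF5A2, EIF1B, EEF2KMT, EIF4E3 and EIF5A) and 9 fell (EIF4E1B, EIF3L, EEF1A1, EEF1B2, EEF2, EIF3E, EIF2D, EEF2K and EIF3F). The 15 calls are 25.0% of the members, against 27.0% of all genes, a share near that of genes at large. In these bulk samples fewer cells with a transcript and less of it per cell cannot be told apart. Of all genes 9.52% were called higher and 17.5% lower. The median log2 fold change was -0.08 over the members and -0.17 over all genes. Trimmed-mean (TMM) scaling, which sets aside the most changed genes, moved the median gene by 0.16, gave the members a median of 0.07 and changed the split to 9 higher and 6 lower (of all genes 24.7% were called, 13.1% higher and 11.6% lower). Under that scaling EIF2D, EIF3F and EEF2K were no longer called, EIF2S1, EIF2B5 and EIF4A1 were called higher, and all 15 main calls kept their direction. The libraries of the conditions did not overlap for 16 members, 8 higher and 8 lower, against 32.8% of all genes (10.8% upward and 21.9% downward). With the library pairs as a replicate block 8 members were called higher and 11 lower (35.4% of all genes, 11.6% higher and 23.8% lower), and edgeR with TMM on the recovered reads gave 8 and 6 (24.5% of all genes, 13.1% and 11.4%).

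**Figure D1:**
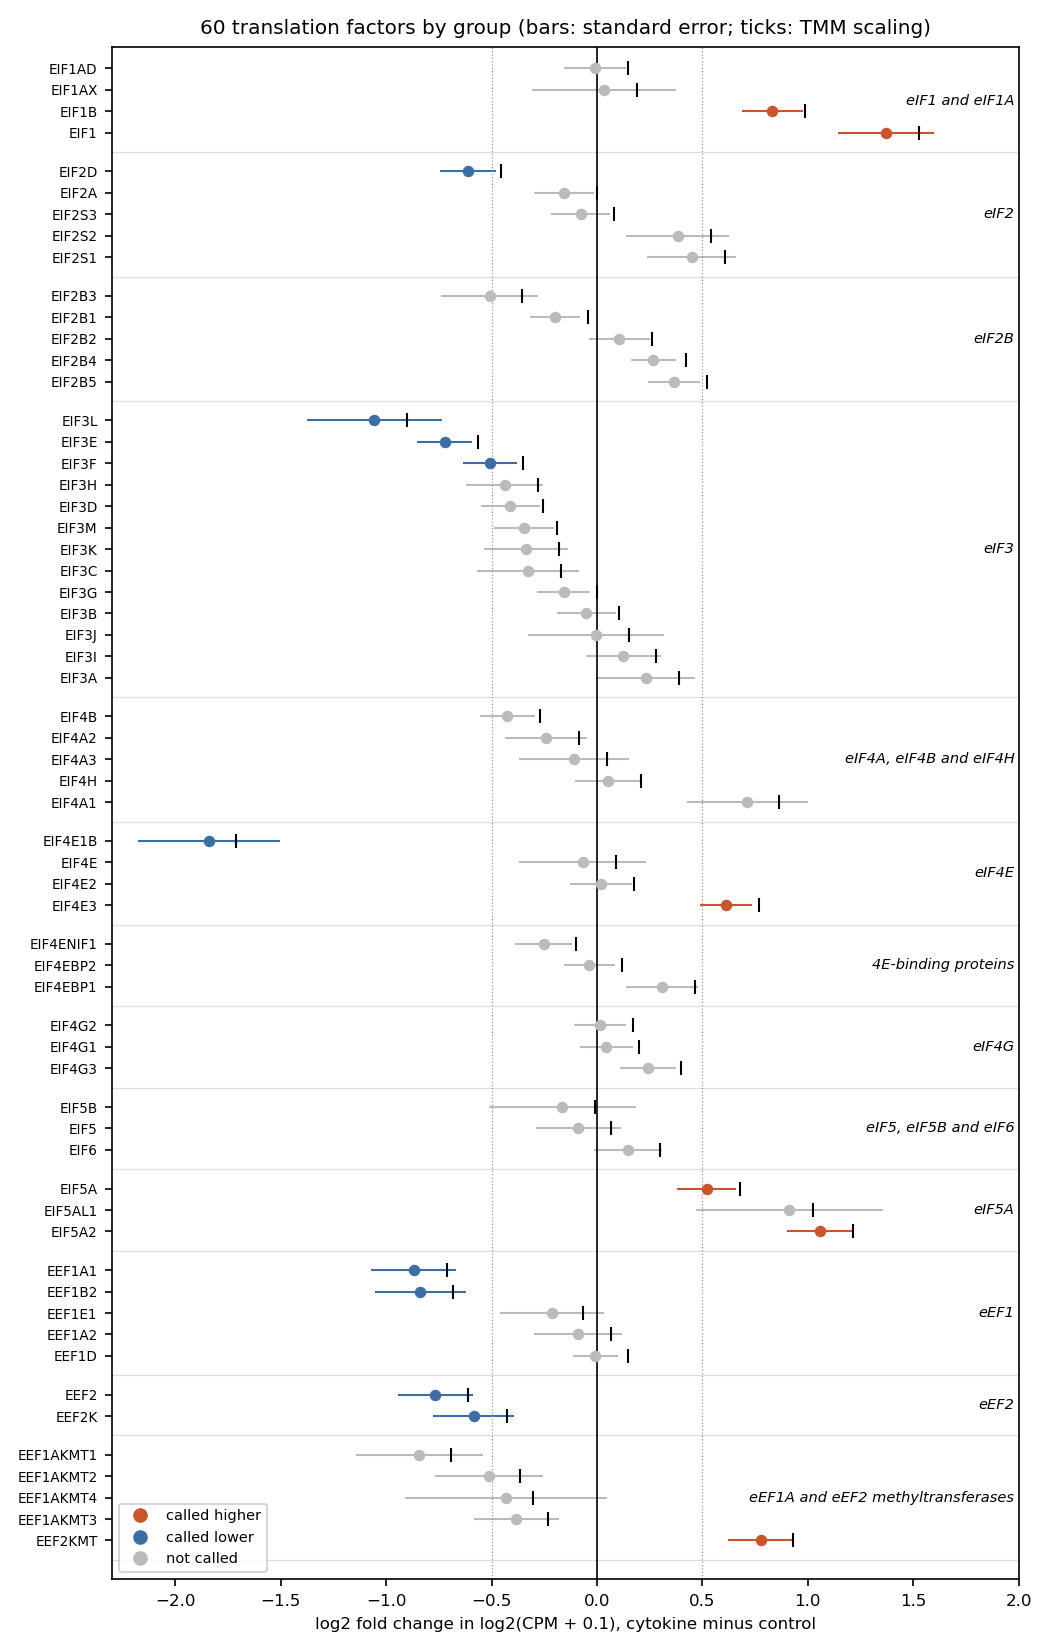
Log2 fold change (cytokine minus control, in log2(CPM + 0.1)) of each of the 60 factors by group, with the standard error as a bar and the value under TMM scaling as a black tick; dotted lines mark 0.5. EIF1 at 1.37 lies farthest to the right and EIF4E1B at -1.84 farthest to the left, and the eIF4G and 4E-binding groups hold no called gene.

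Some features of the libraries bear on every value. The reads recovered from the CPM ran from 36577438 to 40117636 per library, and a gene with no read could have had up to 3, which is 0.0587 to 0.0641 CPM, as far as counting error goes. By the opening of their column names the libraries form 4 pairs of a control and a cytokine library, called A, B, C and D here. Mitochondrially encoded transcripts took 18.7%, 18.3%, 7.39% and 11.5% of the listed reads in control libraries A to D and 13.6%, 13.8%, 5.24% and 8.34% in the cytokine libraries, so their share differed between A, B and C, D and was lower with cytokines in every pair. The median factor lay 0.32 higher on the log2 scale in control libraries C and D than in A and B. The part of these shares in the results was not tested. All 15 calls had the same direction within A and B and within C and D. For called genes whose conditions did not overlap this was fixed in advance, so it adds no support. Libraries A and B were much alike. The chi-square per gene between their reads was 13.3 in control and 5.90 in cytokine libraries. For any other 2 libraries of a condition it was 66.9 to 296. Agreement within A and B may therefore not be that of separate replicates, while the tests treat the 4 libraries of a condition as independent. As a check of the exposure, the cytokine response genes IRF1 and PSMB8 rose, IRF1 by 6.03 and PSMB8 by 4.83 on the log2 scale. Of 16 beta-cell markers all are in the table, 10 fell and 0 rose (27.0% of all genes were called), or 7 and 2 with TMM scaling, by which IAPP and NKX6-1 were called higher, and 11 and 1 with the replicate block. Their summed level was 26212 to 38913 CPM in control and 30433 to 54037 CPM in cytokine libraries, and SLC2A2 was low, at 0.557 CPM in control cells. CHGA, with means of 19221 and 25501 CPM, and IAPP, with 4102 and 7787 CPM, made up most of this sum. Neither was called in the main test, and the sum does not reflect the markers that fell. Of markers of other cells the table holds CPA1 alone of 10 acinar genes, KRT19 and SOX9 of 8 ductal genes, CD14 alone of 8 immune genes, and COL1A1, PDGFRB and ACTA2 of 10 mesenchymal and endothelial genes, whose summed level was 3.96 to 6.19 CPM in control and 13.3 to 16.3 CPM in cytokine libraries. Of these last genes ACTA2 alone was called, with a mean of 0.687 CPM in control and 8.88 CPM in cytokine libraries, and COL1A1 and PDGFRB were not. The summed level was 7.47 to 9.04 and 2.82 to 5.04 CPM for the acinar gene, 81.6 to 160.3 and 80.8 to 166 CPM for the ductal genes, and 1.07 to 3.26 and 1.23 to 1.95 CPM for the immune gene, in control and cytokine libraries. The part of these markers in the results was not tested.

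Compared per exon length, in TPM (CPM divided by exon length and rescaled), EEF2, EEF1A1 and EEF1A2 were the most abundant members. EEF2, the translocase, stood first with 2853 ± 690.4 TPM in control and 1810.4 ± 387 TPM in cytokine libraries (SD, n = 4). EEF1A1 followed with 1484 ± 479 and 873 ± 249.9 TPM, and its paralog EEF1A2, the form of neurons and muscle, with 901 ± 270.4 and 929 ± 339 TPM. The ranges of EEF1A1 and EEF1A2 over the libraries overlapped in both conditions. Within each control library, however, EEF1A1 lay above EEF1A2, at 1024 against 651 TPM in A and 2013 against 1184 TPM in C. With cytokines EEF1A2 lay above EEF1A1 in A, B and C and below it in D. EIF1 came next at 433 TPM over all 8 libraries, ahead of EIF4G2 at 286 and EIF5A at 222 TPM. EIF4H, EIF4A2 and EIF4B, at 188, 185 and 183 TPM, did not differ beyond their spread. At the other end stood EIF4E1B at 0.959 and EIF5AL1 at 0.369 TPM, and the cap-binding protein EIF4E itself was at 8.24 TPM, under EIF4E2 at 24.8 TPM.

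**Figure D2:**
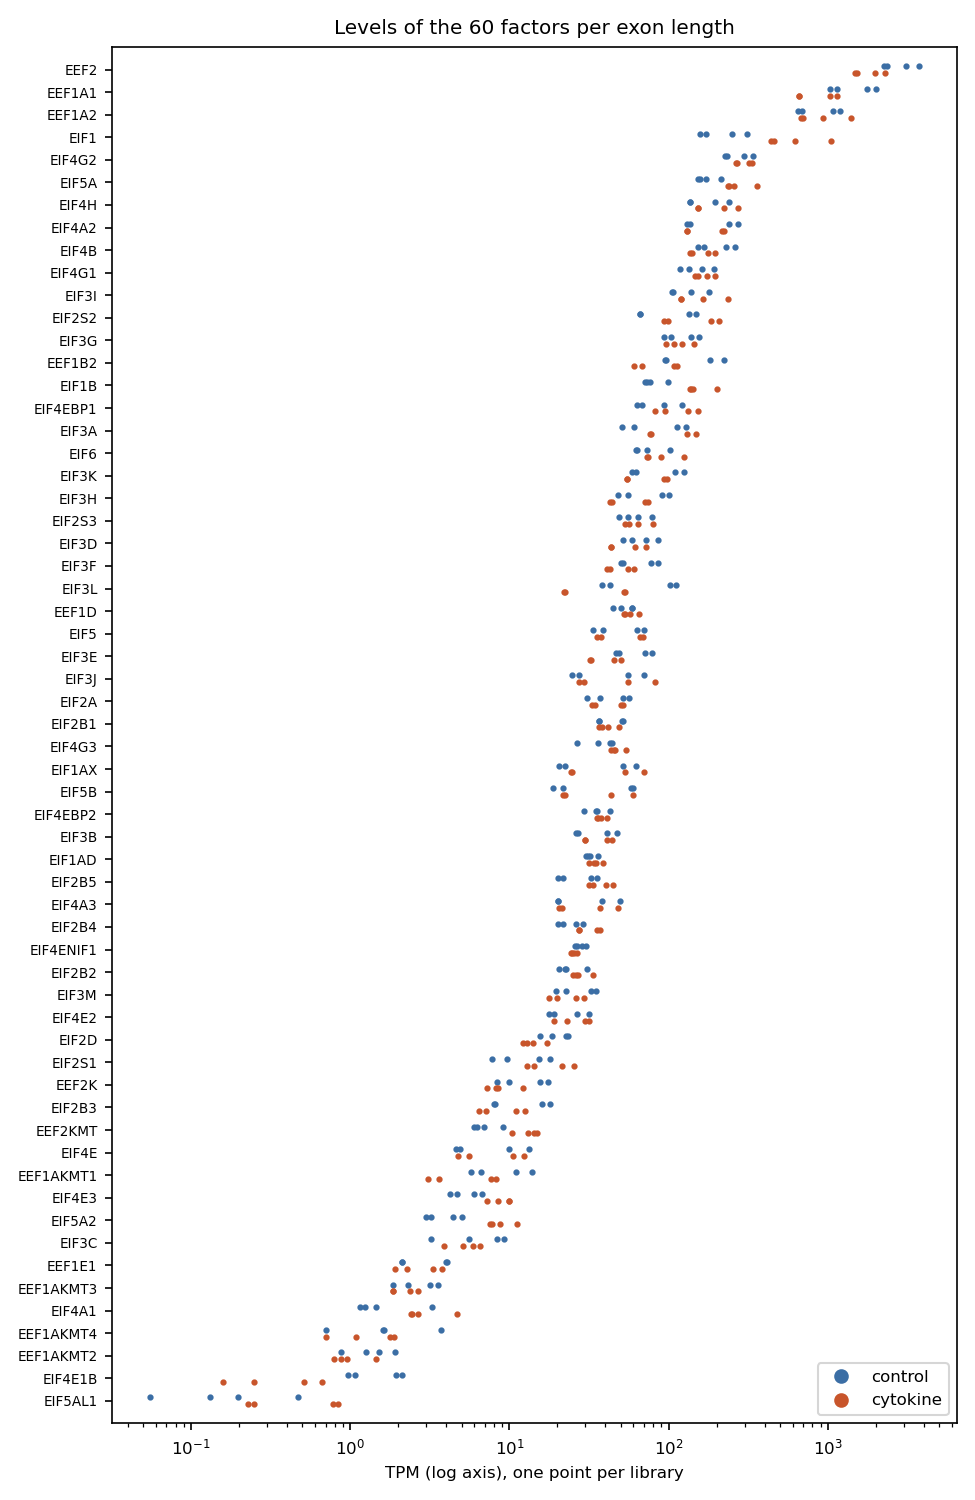
Level of each factor in TPM on a log axis, with a point for each of the 4 control and 4 cytokine libraries and genes ordered by their mean. EEF2 leads at 2332 TPM over all libraries and EIF5AL1 is last at 0.369 TPM, and within a gene the points of libraries C and D often lie to the right of A and B.

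Among the factors of start codon selection, EIF1 and its close paralog EIF1B rose. EIF1 keeps the scanning ribosome from accepting poor start codons. EIF1 (ENSG00000173812, chr17:41688885-41692668, plus strand) stood at 185, 170.1, 267 and 208 CPM in control libraries A to D and at 448, 425, 853 and 478 CPM in cytokine libraries A to D. Every cytokine library lay above every control library, with library C highest in both conditions. The change in EIF1 was 1.37 ± 0.23, adjusted p = 0.00115 (limma). EIF1B (ENSG00000114784, chr3:40309684-40312424, plus strand) rose from 39.8 ± 4.66 to 71.2 ± 11.7 CPM (SD, n = 4), with per-library values of 41.5, 40.1, 44.4 and 33.4 and then 70.3, 70.5, 86.4 and 57.8. Its change was 0.83 ± 0.14, adjusted p = 0.00154 (limma), again without overlap. EIF1 and EIF1B are closely related genes, and whether reads were split between them was not tested. EIF1AX, the X-linked eIF1A, whose near-identical Y-linked copy is not analysed here, had a log2 fold change of 0.03 and EIF1AD, a relative with an eIF1A domain, of -0.01, and neither was called.

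**Figure D3:**
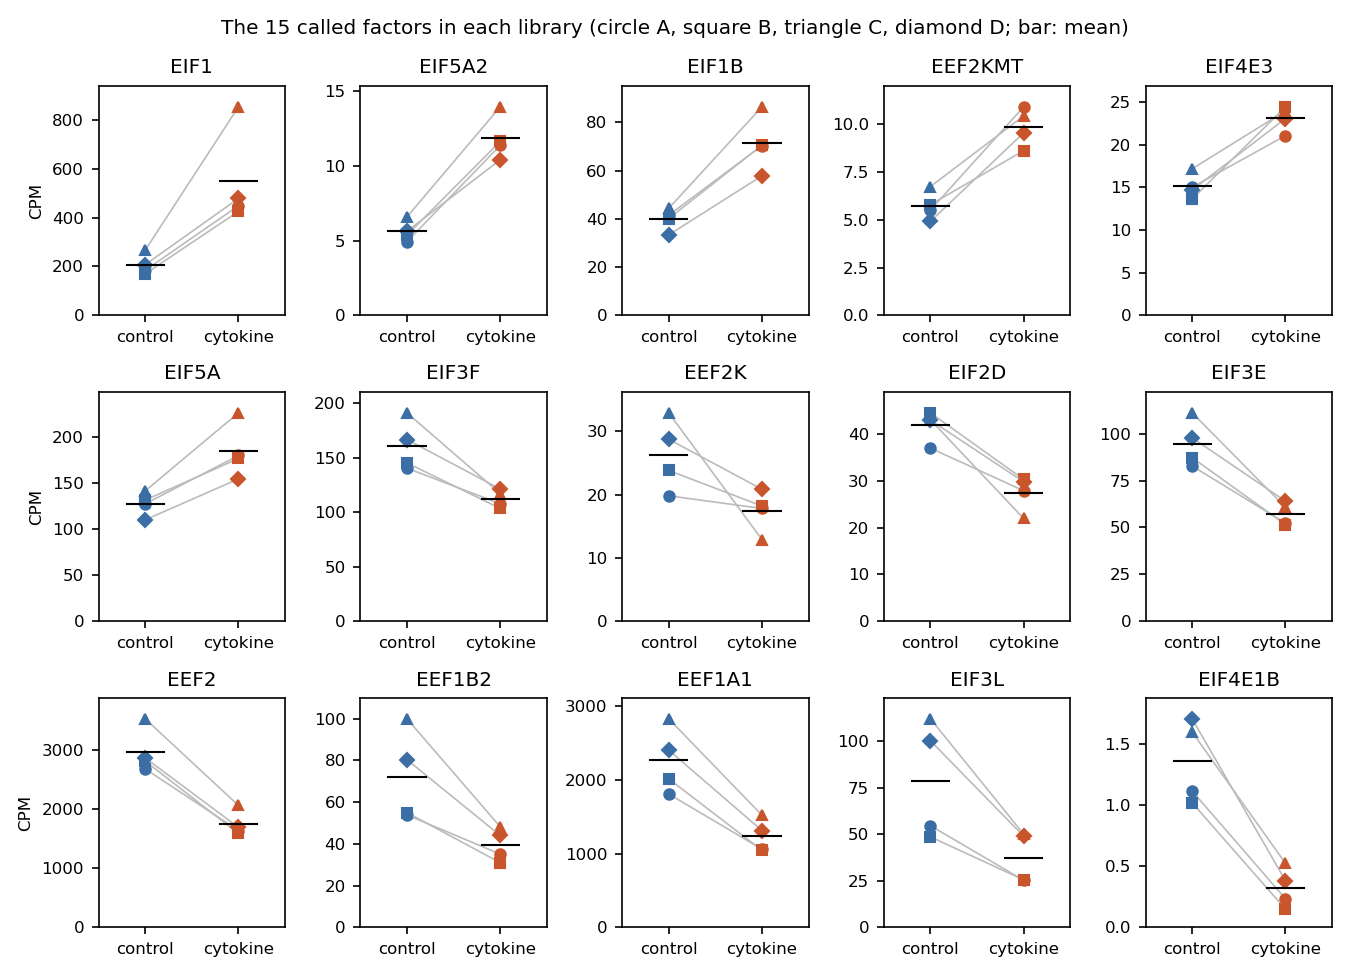
CPM of the 15 called factors in each library, with grey lines joining libraries of the same pair (circle A, square B, triangle C, diamond D) and black bars for means; each axis starts at 0. The 6 genes that rose come first and the 9 that fell after them, and the cytokine library of each pair lies on the same side of its control in every panel.

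In the eIF2 group 1 of 5 genes was called. EIF2D, which can place the initiator tRNA without eIF2 and helps to recycle ribosomes, stood at 36.9, 44.4, 42.96 and 42.9 CPM in control and 27.8, 30.3, 21.9 and 29.8 CPM in cytokine libraries. All cytokine libraries lay below all controls, and the change was -0.61 ± 0.13, adjusted p = 0.00575 (limma). With TMM scaling it was -0.46 (adjusted p = 0.0215), past the adjusted p but short of 0.5. The subunits of eIF2 proper had log2 fold changes of 0.45 for EIF2S1 (eIF2α, the subunit that the stress kinases phosphorylate, adjusted p = 0.131), 0.38 for EIF2S2 (adjusted p = 0.262) and -0.08 for EIF2S3 (limma, none called). With TMM scaling EIF2S1 passed both thresholds, at 0.61 (adjusted p = 0.0292). EIF2A, an alternative initiation factor, was at -0.16.

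None of the 5 subunits of eIF2B, the nucleotide exchange factor of eIF2, was called, although the libraries of EIF2B4 and EIF2B5 did not overlap between conditions. EIF2B5, the catalytic subunit, stood at 45.9, 43.4, 55.1 and 58.05 CPM in control and 64.7, 60.9, 65.04 and 68.96 CPM in cytokine libraries. Its change of 0.37 ± 0.12, adjusted p = 0.0438 (limma) passed the adjusted p but not the fold threshold, and TMM scaling brought it to 0.52 (adjusted p = 0.00296), a call. EIF2B4 had a change of 0.27 ± 0.11, adjusted p = 0.0835, and EIF2B3 of -0.51 ± 0.23, adjusted p = 0.117. With the pairs as a replicate block EIF2B3 was called lower (adjusted p = 0.00118). EIF2B1, the regulatory subunit and the most abundant of the group at 42.6 TPM, was at -0.20.

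The eIF3 complex, the largest initiation factor, had 3 of 13 subunits called lower (23.1%, against 17.5% of all genes) and none higher (9.52% of all genes). The median log2 fold change of its subunits was -0.34, or -0.18 with TMM scaling. Over all genes the median was -0.17, or -0.01 with TMM scaling. Single subunits ran from -1.06 to 0.23. EIF3L stood at 54.7, 48.7, 112 and 100.3 CPM in control and 25.3, 25.5, 50.1 and 49.00 CPM in cytokine libraries. The conditions overlapped only in that cytokine libraries C and D reached the level of control library B, and within each pair the value fell. Its change was -1.06 ± 0.32, adjusted p = 0.0283 (limma), with 41.1% of its exon bases shared with another gene model of the same strand. The call was lost without control library C (-0.86, adjusted p = 0.0710), control library D (-0.91, adjusted p = 0.0797), cytokine library A (-0.89, adjusted p = 0.0779) or cytokine library B (-0.90, adjusted p = 0.0756).

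EIF3E, a subunit that binds mRNA-regulating proteins, stood at 82.7, 87.1, 111 and 97.7 CPM in control and 52.3, 51.6, 60.8 and 64.01 CPM in cytokine libraries. No library overlapped, and the change was -0.72 ± 0.13, adjusted p = 0.00190 (limma). EIF3F, which together with EIF3H forms the MPN pair of the complex, stood at 140.4, 145, 191 and 167 CPM and then at 108, 104, 117 and 121 CPM. It also fell without overlap, by 0.51 ± 0.13, adjusted p = 0.0118 (limma), close to the fold threshold, and was not called with TMM scaling at -0.35 (adjusted p = 0.0233) nor without control library C (-0.42, adjusted p = 0.0221), control library D (-0.49, adjusted p = 0.0330), cytokine library A (-0.49, adjusted p = 0.0376) or cytokine library B (-0.47, adjusted p = 0.0400). EIF3H and EIF3D had changes of -0.44 ± 0.18, adjusted p = 0.0953 and -0.41 ± 0.14, adjusted p = 0.0448. The subunits EIF3A and EIF3B stood at 0.23 and -0.05, EIF3I, the most abundant subunit by TPM, at 0.13, and EIF3J, a loosely bound subunit, at -0.01. The level of EIF3C, 5.97 TPM, is uncertain, because its near-identical copy EIF3CL, not analysed here, can take or remove its reads.

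The cap-binding group held a rise and a fall. EIF4E3, a divergent relative of EIF4E that binds the cap, stood at 15.01, 13.6, 17.2 and 14.7 CPM in control and 21.04, 24.4, 23.9 and 23.05 CPM in cytokine libraries. The conditions lay apart, and the change was 0.61 ± 0.12, adjusted p = 0.00379 (limma). EIF4E1B, an oocyte-type form, was called lower at -1.84 ± 0.34, adjusted p = 0.00208 (limma), but from a low level of 1.11, 1.02, 1.59 and 1.70 CPM to 0.234, 0.150, 0.523 and 0.382 CPM. These values rest on 48 to 87 reads in control and 7 to 26 reads in cytokine libraries. EIF4E1B was above 0.5 CPM in all 4 control libraries but among the cytokine libraries only in C. It could thus enter the table through the condition where it was high, and such a filter favours a fall. EIF4E and EIF4E2 were not called, with -0.07 and 0.02.

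No scaffold or helicase gene was called in the main test. EIF4G1, EIF4G2 and EIF4G3 had log2 fold changes of 0.04, 0.01 and 0.24, and of the eIF4E inhibitors EIF4EBP1 was at 0.31 and EIF4EBP2 at -0.04 (none called). EIF4B, the cofactor of the helicase, stood at 279, 307, 380.0 and 324 CPM in control and 224, 229, 270.4 and 233 CPM in cytokine libraries. Its libraries did not overlap, while the change of -0.43 ± 0.13, adjusted p = 0.0294 (limma) missed the fold threshold. EIF4A2, the helicase paralog with the higher counted level, was at -0.24. EIF4A1 had the largest value of its group, 0.71 ± 0.29, adjusted p = 0.0838, not called in the main test but past both thresholds under TMM scaling, at 0.86 (adjusted p = 0.0400), with the replicate block (adjusted p = 0.00173) and without control library D (0.97, adjusted p = 0.0168). The 2.39 CPM of EIF4A1 in control libraries is an uncertain level, since 48.6% of its exon bases are shared with other gene models of the same strand, the readthrough gene SENP3-EIF4A1 among them, and the default counting leaves out reads that overlap several genes. EIF5, EIF5B and EIF6, which act at GTP hydrolysis and subunit joining, were at -0.09, -0.17 and 0.14 (none called).

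Of the 3 genes of the hypusinated factor eIF5A, which relieves ribosomes at stalling sequences such as polyproline, EIF5A and EIF5A2 rose (9.52% of all genes were called higher). EIF5A2 stood at 4.94, 5.38, 6.59 and 5.63 CPM in control and 11.4, 11.6, 13.95 and 10.4 CPM in cytokine libraries. No library overlapped, and the change was 1.06 ± 0.16, adjusted p = 5.6e-04 (limma). EIF5A, the ubiquitous form, stood at 127, 131, 141 and 110.0 CPM and then at 179.6, 176, 226 and 154 CPM, also apart, with a change of 0.52 ± 0.14, adjusted p = 0.0161 (limma). EIF5A missed the fold threshold without control library D (0.45, adjusted p = 0.0490) or cytokine library C (0.42, adjusted p = 0.0338). EIF5AL1, a near-identical retrocopy at under 1 CPM, had 0.91 ± 0.44, adjusted p = 0.145 in the main test and was called with the replicate block (adjusted p = 0.0338), though reads of EIF5A may have been counted on it. Of the libraries used here, only cytokine libraries C and D held EIF5AL1 above 0.5 CPM, and no control library did. A filter met on the side where a gene is high favours a rise, so this call adds no support.

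Of the 5 eEF1 genes EEF1A1 and EEF1B2 fell and none rose (of all genes 17.5% were called lower and 9.52% higher). EEF1A1 (ENSG00000156508, chr6:73515750-73523797, minus strand), which delivers aminoacyl-tRNA, stood at 1805, 2010.2, 2822 and 2399 CPM in control and 1059, 1044, 1519 and 1311 CPM in cytokine libraries. Its conditions did not overlap, and the change was -0.87 ± 0.20, adjusted p = 0.00772 (limma). EEF1B2, a subunit of the exchange factor that recharges eEF1A, stood at 53.8, 54.97, 99.9 and 80.3 CPM and then at 35.1, 30.99, 48.2 and 44.02 CPM, with a change of -0.84 ± 0.22, adjusted p = 0.0136 (limma). It lay lower in every pair and without overlap. EEF1D, another subunit of the same complex, was at -0.01, and EEF1A2 and EEF1E1 were at -0.09 and -0.21 (none called).

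EEF2 (ENSG00000167658, chr19:3976056-3985469, minus strand) stood at 2679, 2811, 3525 and 2864 CPM in control and 1638, 1588, 2061 and 1691 CPM in cytokine libraries. The cytokine libraries all lay below the controls, with a change of -0.77 ± 0.18, adjusted p = 0.00774 (limma). EEF2K, the kinase that inactivates eEF2, was also called lower, at -0.58 ± 0.19, adjusted p = 0.0389 (limma), from 19.8, 23.8, 32.9 and 28.7 CPM to 17.8, 18.2, 12.9 and 20.9 CPM. Its libraries overlapped (cytokine library D lay above control library A), the exact 2-sided permutation p was 0.0571, and the change was -0.27 within A and B and -0.90 within C and D. The EEF2K call was lost with TMM scaling at -0.43 (adjusted p = 0.0783) and without control library B (-0.62, adjusted p = 0.0606), control library C (-0.47, adjusted p = 0.0907), control library D (-0.53, adjusted p = 0.0973), cytokine library A (-0.60, adjusted p = 0.0712), cytokine library B (-0.61, adjusted p = 0.0645) or cytokine library C (-0.45, adjusted p = 0.0903).

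Of the methyltransferases that modify eEF1A and eEF2, EEF2KMT rose while the others were not called. EEF2KMT stood at 5.52, 5.80, 6.75 and 4.93 CPM in control and 10.9, 8.63, 10.4 and 9.56 CPM in cytokine libraries, without overlap, a change of 0.78 ± 0.16, adjusted p = 0.00379 (limma). EEF1AKMT1 had -0.84 ± 0.30, adjusted p = 0.0560, and was called lower with the replicate block (adjusted p = 0.00102) and without cytokine library C (-0.99, adjusted p = 0.0425) or cytokine library D (-1.002, adjusted p = 0.0430). All 4 EEF1AKMT genes were under 5 CPM in every library. For the 13 called factors whose libraries did not overlap, the exact 2-sided permutation test gave p = 0.0286, the smallest that 4 against 4 libraries allow, and for EIF3L it gave p = 0.0857. The value for the 13 is fixed by the lack of overlap and adds no support beyond it. The cytokine effect on the members did not differ detectably between pairs A, B and pairs C, D, with 0 of 60 interaction terms past the adjusted threshold in limma and 1, EEF2K, at an unadjusted p under 0.05 (named after its value was seen).

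The balance between related factors was measured as a ratio within each library, from which the library scaling cancels. EEF1A2 was present at 0.525, 0.501, 0.486 and 0.506 CPM per CPM of EEF1A1 in control libraries A to D and at 0.863, 0.856, 1.02 and 0.749 in cytokine libraries A to D. All cytokine libraries lay above the controls, and the ratio differed by 0.78 on the log2 scale, from -0.99 ± 0.05 to -0.21 ± 0.18 (SD, n = 4). The ratio of EIF5A2 to EIF5A, also without overlap, differed by 0.54 on the log2 scale, from -4.48 ± 0.18 to -3.94 ± 0.06 (SD, n = 4). EIF1B relative to EIF1 differed by -0.54 on the log2 scale, from -2.36 ± 0.29 to -2.90 ± 0.33 (SD, n = 4), lower in 4 of 4 pairs. EIF4A2 relative to EIF4A1 differed by -0.96 on the log2 scale, from 6.98 ± 0.54 to 6.03 ± 0.45 (SD, n = 4), also lower in 4 of 4 pairs, with the level of EIF4A1 uncertain as given above. The exact 2-sided permutation p was 0.0286 for the first pair of ratios and 0.0571 for each of the others. Adjusted over the 9 ratios examined it was 0.129 for all 4, so none passed. With 4 against 4 libraries the smallest possible p is 0.0286, so after this adjustment no ratio could pass by its own separation alone. The adjusted values therefore cannot decide whether a ratio shifted. The ratios were also chosen after seeing values. EIF4E3 to EIF4E differed by 0.68, higher in 4 of 4 pairs (adjusted exact permutation p = 0.257). EIF4G2 to EIF4G1 differed by -0.03, and EIF4E2 to EIF4E by 0.09, higher in 4 of 4 pairs (adjusted exact permutation p = 0.514 and 0.600). The permutation test did not use the library pairs.

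**Figure D4:**
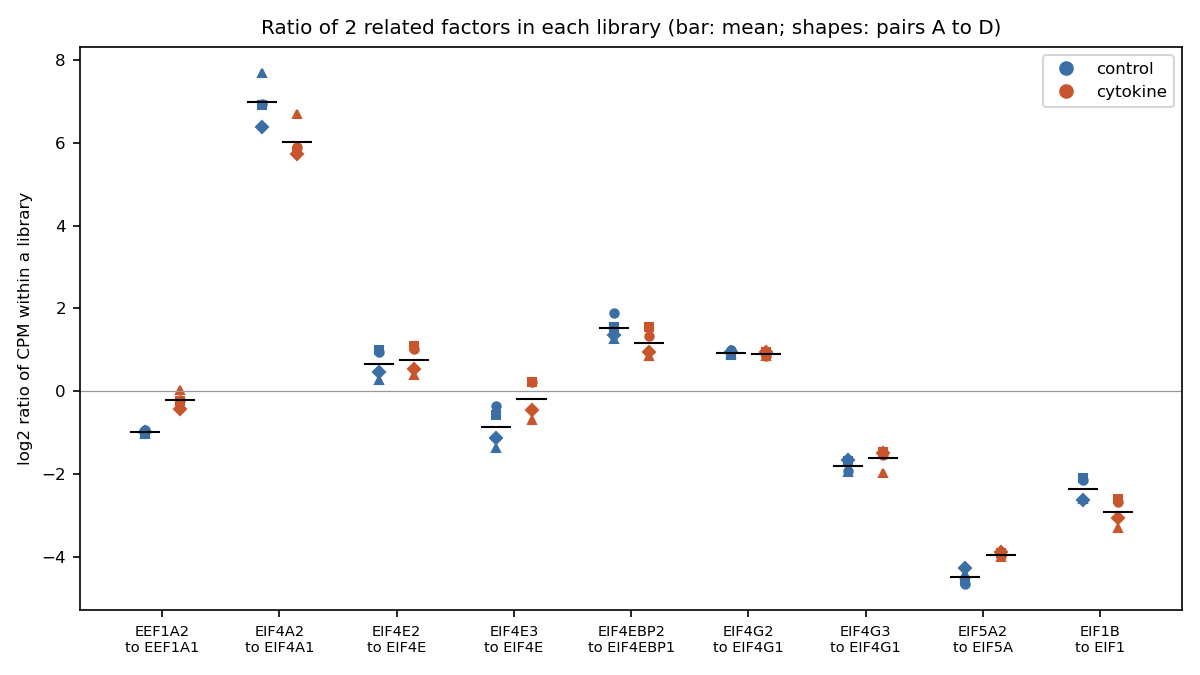
Log2 ratio of the CPM of related factors within each library, for 9 pairs of genes in 4 control and 4 cytokine libraries, with bars for means and shapes for the library pairs. The ratio of EEF1A2 to EEF1A1 has a control mean of -0.99 and a cytokine mean of -0.21 without overlap, while that of EIF4G2 to EIF4G1 stays near 0.93.

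EEF1A1, EEF1B2 and EEF2, the elongation factors that fell, each have a RefSeq start that opens with a pyrimidine run, and EEF1B2 has another RefSeq start without one. A gene was placed by any of its starts. A start was counted as TOP-like when the first base was C and at least the next 4 were pyrimidines, a definition chosen after the values had been seen, so it is given as a description with no test. Of the 48 members with a RefSeq start, 12 (25.0%) had such a start, against 5.14% of the 27305 genes in the RefSeq set and 7.39% of the 10821 coding genes of the table that matched it. These were EEF1A1, EEF1B2, EEF2, EIF2A, EIF2D, EIF2S3, EIF3D, EIF3F, EIF3K, EIF3M, EIF4A2 and EIF4B. All 12 had a log2 fold change below 0, from -0.87 to -0.08 with a median of -0.42, and 5 were called lower and none higher. With TMM scaling 11 of 12 stayed below 0, the median was -0.26 and 3 were called lower, the exception being EIF2S3. Of the 36 members with other starts, 17 were below 0, 5 were called higher (EIF1, EIF1B, EIF5A, EIF5A2 and EIF4E3) and 2 lower (EIF4E1B and EEF2K), with a median of 0.02, or 0.17 with TMM scaling. Over the coding genes of the table the median log2 fold change was -0.18 for the 800 genes with a TOP-like start (151 called lower and 60 higher) and -0.11 for the 10021 without (1610 lower and 1037 higher), or -0.03 and 0.04 with TMM scaling. The called factors EIF3L, EIF3E and EEF2KMT were not matched in the set of starts used here.

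**Figure D5:**
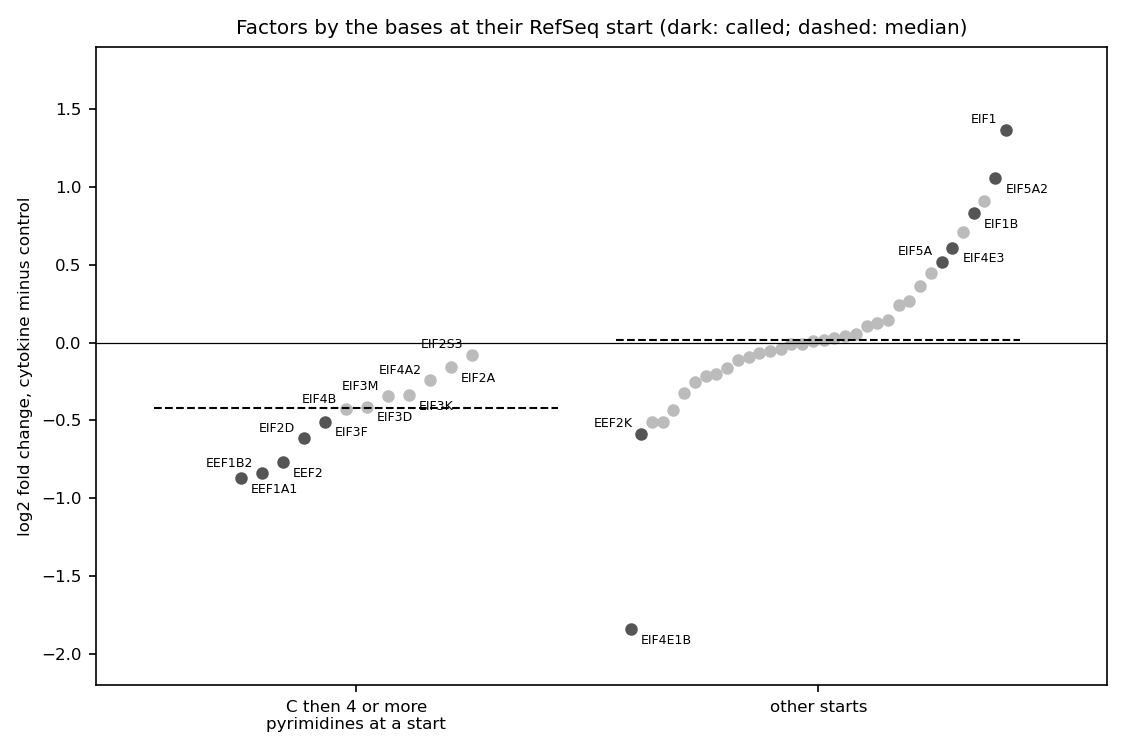
Log2 fold change (cytokine minus control) of the 48 factors with a RefSeq start, split by whether a start opens with C and 4 or more pyrimidines, with called genes in dark grey and the median of each class dashed. The 12 genes on the left all lie below 0, from -0.87 to -0.08, and the 36 on the right run from -1.84 to 1.37.

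Of 4 motifs searched on both strands in the 300 bases around each start (250 before and 50 after), CACGTG, the E-box bound by MYC and USF proteins, was found in 12 of 48 members (25.0%). It was in 8.77% of the 27305 genes in the RefSeq set, measured here or not. The shares among the coding genes of the table are not given for these motifs. This motif reads the same on both strands. It is shown in capitals for the called genes EIF5A2, which holds it at 2 places, and EIF1B, at chr3:170908809-170908834 and chr3:170908784-170908809 (minus strand), and at chr3:40309643-40309668 (plus strand).
EIF5A2 distal: taatccgcagCACGTGgggttgccag
EIF5A2 proximal: gggcgctcttCACGTGactgggcgga
EIF1B: gcgggacggtCACGTGggaggggccg
The called-lower genes EIF3F and EEF2K also hold CACGTG, so the motif lay at genes of both directions. The core of the interferon-stimulated response element (GAAA, any 2 bases, GAAA) was in 4 of 48 members (8.33%, 4.38% of the RefSeq set), namely EIF2A, EIF3C, EIF3K and EIF6, and the STAT-type letters TTCNNNGAA in 3 (6.25%, 9.38% of the RefSeq set), namely EIF3I, EEF1AKMT4 and EIF4E. None of these was called. TGATGNAAT, the letters of the C/EBP-ATF element, was in 0 of the 48 members and in 1.22% of the RefSeq set. A match is only a match of letters in this window.

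Genes that act on the factors or beside them were read from 6 lists of 82 measured genes. Of these 11 rose and 7 fell (27.0% of all genes were called, 9.52% higher and 17.5% lower). With TMM scaling 14 rose and 2 fell (13.1% and 11.6% of all genes). The eIF2 kinases and the stress response that follows eIF2 phosphorylation had 9 of 18 genes higher (9.52% of all genes), 1 lower and 8 not called. The lower gene was SESN2, an inhibitor of mTORC1 signalling, at -0.50 ± 0.14, adjusted p = 0.0207 (limma). The SESN2 call was lost with TMM scaling at -0.35 (adjusted p = 0.137), and SESN2 is named after its values were seen. The 9 higher genes were ATF3, PPP1R15A, CHAC1, ASNS, DDIT3, EIF2AK3, EIF2AK2, ATF4 and PPP1R15B. Among them PPP1R15A, which brings a phosphatase to eIF2α, stood at 29.3, 38.4, 40.2 and 31.97 CPM in control and 258, 252, 448 and 249 CPM in cytokine libraries, a change of 3.07 ± 0.20, adjusted p = 1.1e-06 (limma). The transcription factor ATF3 rose by 6.05, CHAC1, a glutathione-degrading enzyme, by 1.47 and ASNS, asparagine synthetase, by 1.33 on the log2 scale. The list of mTORC1 and MNK regulators, which includes EEF2K, had 0 of 18 genes higher and 2 lower. With TMM scaling 1 was higher, TSC1 at 0.58 (adjusted p = 0.0288), and 1 lower. With the replicate block 0 were higher and 3 lower (23.8% of all genes were lower), RPS6 among them at -0.78 (adjusted p = 3.1e-08). TSC1 and RPS6 are named after their values were seen. PDCD4, an inhibitor of eIF4A, fell from 104 ± 27.9 to 47.02 ± 8.002 CPM (-1.12 ± 0.20, adjusted p = 0.00156, limma).

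For the counts that follow, 27.0% of all genes were called, 9.52% higher and 17.5% lower. Poly(A)-binding proteins and partners had 1 of 6 genes called, PABPC1L at -0.88 ± 0.29, adjusted p = 0.0425 (limma). This call was lost with TMM scaling at -0.73 (adjusted p = 0.120) and without control library A (-0.77, adjusted p = 0.0957), control library B (-0.83, adjusted p = 0.0948), control library D (-0.82, adjusted p = 0.0984), cytokine library C (-0.59, adjusted p = 0.0728) or cytokine library D (-0.95, adjusted p = 0.0603). Other initiation factors had 1 of 15 called, BZW2, a mimic of eIF5, at -0.75 ± 0.26, adjusted p = 0.0449 (limma), lost with TMM scaling at -0.60 (adjusted p = 0.0664) and without control library C (-0.54, adjusted p = 0.0973), control library D (-0.69, adjusted p = 0.109), cytokine library A (-0.70, adjusted p = 0.104), cytokine library B (-0.67, adjusted p = 0.108) or cytokine library D (-0.78, adjusted p = 0.0728). Enzymes of hypusine and diphthamide, the modified residues of eIF5A and eEF2, had 1 of 9 called, the diphthamide enzyme DPH5, which fell from 12.2 ± 1.85 to 7.41 ± 0.918 CPM (-0.71 ± 0.16, adjusted p = 0.00732, limma). The hypusine enzymes DHPS and DOHH were at -0.11 and 0.35 and were not called. Of 16 genes of termination, recycling and other elongation steps, 2 rose and 1 fell. GTPBP1, a GTPase related to eEF1A, changed by 0.83 ± 0.10, adjusted p = 1.6e-04, and ABCE1, which splits ribosomes after termination, by 0.56 ± 0.18, adjusted p = 0.0354 (limma). ABCE1 was not called without control library A (0.44, adjusted p = 0.0838), control library B (0.49, adjusted p = 0.0953), cytokine library B (0.60, adjusted p = 0.0523), cytokine library C (0.48, adjusted p = 0.0847) or cytokine library D (0.51, adjusted p = 0.0884). EEFSEC, the elongation factor of selenocysteine, had -0.51 ± 0.13, adjusted p = 0.0149, and was not called with TMM scaling at -0.35 (adjusted p = 0.0902) nor without control library A (-0.45, adjusted p = 0.0390), control library B (-0.50, adjusted p = 0.0423), control library C (-0.49, adjusted p = 0.0298) or cytokine library D (-0.46, adjusted p = 0.0453).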

How the data were processed

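RNA of 8 EndoC-βH5 cultures was sequenced. The authors trimmed reads, aligned them with TopHat2 2.1.1 to GRCh38, counted them per gene of Ensembl release 107 with strand by HTSeq 0.9.1 and deposited CPM for genes above 0.5 CPM in 4 or more samples. All values were whole multiples (within 0.01) of 1 read, so reads were recovered. The 4 other value columns were not used. Lengths, coordinates and shared exons come from GENCODE 29 (GRCh38, 97.8% of genes matched), and TPM is CPM over union exon length, rescaled.

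The main test was a trended limma 3.58.1 fit of log2(CPM + 0.1) in R 4.3.3, on the 8 libraries without a block. Alternatives used TMM, median-of-ratios and quantile scaling, pseudocounts 0.5 and 1, a filter at 1 CPM, no trend, recovered reads in edgeR 4.0.16 and in DESeq2 1.42.0, a replicate block, a series term, FDR alone and leaving out each library. The fits were tested on simulated data. Tables and figures used Python 3.11.15, pandas 2.3.3, numpy 2.4.6, scipy 1.17.1 and matplotlib 3.10.9. Pairs come from column names, and deviations from the condition means correlated by 0.57, 0.59, 0.80 and 0.74 within A to D, although control A with cytokine library B (0.57) and control B with cytokine library A (0.59) did so as strongly.

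Members, lists and tests were chosen with earlier results of these data known. Named genes are the called factors, the most abundant and the most changed of each group, fixed paralogs and up to 4 called genes of each list. Paralog ratios, their alternatives and the TOP-like start were chosen after seeing values.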

Additional observations from a re-analysis of the deposited data

Results flagged for a closer look

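Within conditions of 4 libraries, 6 values among the named genes lay far from the other 3 libraries of their condition by Dixon's test, of 88 groups screened, of which chance would flag about 1 in 20. 4 of the 6 were library C with cytokines: EIF1 at 853 CPM (others 425 to 478), EEF1A2 at 1545 CPM (others 894 to 981), EIF6 at 45.7 CPM (others 31.4 to 32.6) and PPP1R15A at 448 CPM (others 249 to 258). EIF3I stood at 73.1 CPM in control library C (others 54.0 to 54.7). EIF4A1 stood at 3.95 CPM in control library D (others 1.81 to 1.97). Without cytokine library C the changes were 1.14 for EIF1 and 2.86 for PPP1R15A, and both stayed called.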

How the results depend on the processing

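The 6 higher and 9 lower calls among the factors became 10 and 6 with DESeq2, 11 and 7 in edgeR with TMM and the replicate block, and 8 and 6 in edgeR with TMM. The share of all genes called also moved, from 27.0% to 24.5% in edgeR with TMM and 35.4% in limma with the block. It is not given for DESeq2 or edgeR with the block, so those counts cannot be set against genes at large. With the replicate block alone, limma called 8 factors higher and 11 lower, and all 15 main calls were among them. Leaving out each library in turn gave 5 to 6 higher and 6 to 11 lower calls, 9 to 13 companion genes higher and 3 to 6 lower (3 without control library B and without cytokine library D, against 7), and a median factor between -0.213 and 0.00439. The 7 companion genes called lower became 2 with TMM, with median-of-ratios scaling and with edgeR with TMM, 3 with DESeq2, and 4 with quantile normalization and without the intensity trend. The median log2 fold change of the factors, -0.083, became 0.096 with DESeq2, 0.090 in edgeR with TMM and 0.079 with median-of-ratios scaling, and 12 of the uncalled factors then changed sign. All 15 called factors kept their direction in every alternative that tested them. The filter at 1 CPM left out EIF4E1B. Causes of these shifts were not tested. EIF2S2, at 0.38 in the main test, was called higher at 0.56 with DESeq2 and at 0.54 in edgeR with the replicate block.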

Other observations

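Summed over all 60 factors the level ran from 9299 to 13116 CPM in control to 7681 to 10645 CPM in cytokine libraries, given as a description with no test. The mean sum was 10853 CPM in control and 8673 CPM in cytokine libraries. EEF2 alone had means of 2970 and 1744 CPM, and EEF1A1 of 2259 and 1233 CPM. The lower sum therefore rests on these genes, which also dominate the eEF2 and eEF1 sums, and is not a fall of the factors at large. The eEF2 group went from 2699 to 3558 CPM in control to 1606 to 2074 CPM in cytokine libraries and the eEF1 group from 2946 to 4425 CPM in control to 2099.9 to 3251 CPM in cytokine libraries. The eIF2B subunits together ran from 158 to 189.8 CPM in control to 183 to 190.4 CPM in cytokine libraries, and the eIF4G scaffolds from 938 to 1165 CPM in control to 1011 to 1105 CPM in cytokine libraries. The eIF5A group ran from 116 to 148 CPM in control to 165 to 240.4 CPM in cytokine libraries, without overlap.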
